A study of Mus musculus with 4 samples.

Results

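Genes that move or store iron and zinc were followed in cultured mouse microglia, which are macrophages that live in the brain, after exposure to lipopolysaccharide (LPS), a glycolipid of the bacterial surface. The set held 10 genes, chosen by name for their part in metal handling, out of 24148 genes in the deposited count table. Its members were the iron carriers and transporters Tfrc, Slc11a2, Slc11a1 and Slc40a1, the ferritin subunits Ftl1 and Fth1, the siderophore-binding protein Lcn2, the zinc and iron importer Slc39a14, and the metallothioneins Mt2 and Mt1. The groups were LPS (10 ng/ml for 4 h, 2 libraries) and control (2 libraries). In both, primary microglia were detached by shaking from flasks of mixed glia, with no sorting step described, and strain, sex and number of animals are not given in the labels. Nothing in the labels ties a replicate to a culture or animal of its own, so the p-values below reflect the spread between libraries, which may be technical.

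Iron enters most cells bound to transferrin through the receptor Tfrc, leaves the endosome through Slc11a2, is stored in ferritin and is exported by Slc40a1 (ferroportin). Macrophages take part in limiting the iron available to microbes, and Lcn2 serves the same end by binding the siderophores with which bacteria scavenge iron. Zinc is buffered inside cells by metallothioneins, small cysteine-rich proteins whose genes respond to zinc through the transcription factor Mtf1, which binds metal response elements in their promoters.

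The promoter windows of Mt2 and Lcn2 are shown because these genes rose most among the members, and that of Mt1 because it was not called although it neighbours Mt2. Mt2 and Mt1 lie on the plus strand of chromosome 8 with 5315 bases between them. Each window covers 250 bases before to 50 bases after a transcript start (RefSeq, GRCm38.p6) and is printed 5′ to 3′ on the gene's own strand, at chr8:94172368-94172667 for Mt2, chr8:94178839-94179138 for Mt1 and chr2:32387690-32387989 (minus strand) for Lcn2. The start used for the Mt1 window lies inside the span given for that gene below. Capitals mark the metal response element core (TGCACNC or TGCGCNC, either strand) in Mt2 and Mt1 and an NF-kB type motif (GGG, any 5 bases, CC, either strand) in Lcn2.
Mt2: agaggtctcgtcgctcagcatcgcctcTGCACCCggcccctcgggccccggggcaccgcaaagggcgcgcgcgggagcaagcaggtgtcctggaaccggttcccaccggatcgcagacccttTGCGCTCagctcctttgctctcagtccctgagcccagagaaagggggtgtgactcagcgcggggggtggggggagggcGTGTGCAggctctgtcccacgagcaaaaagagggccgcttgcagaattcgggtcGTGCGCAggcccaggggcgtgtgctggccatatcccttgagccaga
Mt1: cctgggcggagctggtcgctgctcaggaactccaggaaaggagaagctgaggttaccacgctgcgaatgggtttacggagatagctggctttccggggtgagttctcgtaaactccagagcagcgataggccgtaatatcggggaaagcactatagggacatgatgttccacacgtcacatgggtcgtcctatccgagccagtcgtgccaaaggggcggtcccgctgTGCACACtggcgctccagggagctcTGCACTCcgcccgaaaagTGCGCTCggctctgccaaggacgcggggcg
Lcn2: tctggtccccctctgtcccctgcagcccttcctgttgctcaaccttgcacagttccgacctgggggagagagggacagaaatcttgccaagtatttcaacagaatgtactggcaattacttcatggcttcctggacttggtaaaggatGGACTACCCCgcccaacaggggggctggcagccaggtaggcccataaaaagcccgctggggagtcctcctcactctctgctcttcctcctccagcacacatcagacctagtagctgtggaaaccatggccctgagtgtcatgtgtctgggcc
With the start base counted as 0, the Mt2 window held 4 metal response cores, beginning at -223, -128, -50 and 4. The Mt1 window held 3, beginning at -23, 2 and 20 from its start inside the gene's span. Other possible starts of Mt1 were not searched, so the numbers of cores in Mt2 and Mt1 cannot be compared. At least 1 such core was present in 25.9% of 32544 promoter windows of this length, at least 3 in 1.99% and at least 4 in 0.522%. The Lcn2 window held 1 NF-kB type match, beginning at -102, on the strand opposite to the gene, and this motif was present in 51.0% of windows. Mt1 held 2 overlapping matches to the NF-kB type motif and Mt2 none. Windows of Tfrc, Fth1 and Ftl1, which were not called, also held this motif. An antioxidant type motif (TGANNNNGC, in 41.4% of windows) matched once in Mt2, at -79, overlapped no metal response core, and matched neither Mt1 nor Lcn2. An interferon type motif (TTTC, any 2 bases, TTTC), in 3.45% of windows, matched none of the 3 windows shown. These matches describe letters and show no binding.

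Iron genes carry a second kind of regulatory sequence, the iron responsive element of the mRNA, a hairpin bound by iron regulatory proteins. Bound near the start of ferritin and ferroportin mRNAs it blocks translation, and bound in the tail of Tfrc mRNA it protects the transcript from decay. A search for a C, 5 paired bases, the loop CAGTGN and 5 paired bases (G-T pairs allowed) in the reference transcripts found 1 site each in the 5′ UTR of Slc40a1, Ftl1 and Fth1 and 4 in the 3′ UTR of Tfrc. They are shown with 5 flanking bases on each side and the loop in capitals, since none of the members that carry them was called.
Slc40a1: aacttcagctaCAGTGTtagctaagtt
Ftl1: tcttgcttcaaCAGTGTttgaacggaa
Fth1: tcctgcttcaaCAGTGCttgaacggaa
Tfrc, site 1: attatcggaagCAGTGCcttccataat
Tfrc, site 2: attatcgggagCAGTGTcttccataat
Tfrc, site 3: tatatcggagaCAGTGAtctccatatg
Tfrc, site 4: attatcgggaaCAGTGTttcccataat
Such a hairpin was found in 0.116% of 40417 reference transcripts with a 5′ UTR and in 0.473% of 41626 with a 3′ UTR, which differ in length. No site of this strict form was found in the Slc11a2 transcripts, which says nothing of looser forms. RNA counts measure the transcript and not its translation.

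The count table held 5095630 and 4592474 counts in the LPS libraries and 3617176 and 4080568 counts in the control libraries. A single non-coding accession without a gene name took 20.0% to 24.8% of them and Lars2 5.02% to 13.0%. Expression is in CPM, the usual counts-per-million measure of a gene's share of its library. Library sizes were adjusted by TMM, a scaling that sets most genes equal between libraries. The factors were 0.822 and 0.908 in LPS and 1.05 and 1.27 in control, so the scaling raised LPS values relative to control. Summed markers of microglia and macrophages were 3154 and 2951 CPM in LPS and 4606 and 4146 CPM in control, with 11 of 13 markers tested and none called in either direction. The defining marker Itgam, with more than 1 accession in the table, was listed at 0, and Trem2 had 1 and 0 counts in LPS and 0 and 2 in control. Summed astrocyte markers were 136 and 449 CPM in LPS and 120 and 321 CPM in control, and summed oligodendrocyte lineage markers 231 and 57.6 CPM in LPS and 243 and 66.2 CPM in control. In both groups the astrocyte sum, which Gfap and Aqp4 dominate, was higher in the library numbered 2, and so were 7 of the 8 tested astrocyte markers. The remaining one, S100b, went the other way, with 39.2 and 2.64 CPM in LPS replicates 1 and 2 and 37.1 and 2.69 CPM in control replicates 1 and 2. The oligodendrocyte sum and all 7 tested markers of that list were lower in replicate 2 of each group. In RNA from whole cultures, fewer cells of a type and less RNA per cell cannot be told apart.

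Of the 10 genes, 9 had the mean count of at least 10 needed for testing, and 3 rose in LPS: Lcn2, Mt2 and Slc11a2. None fell. Calls are at an adjusted p under 0.05 in edgeR's quasi-likelihood test, adjusted by Benjamini-Hochberg over all 9548 genes tested, of which 6.55% were called higher and 1.79% lower (8.34% in either direction). At an unadjusted p under 0.05, edgeR placed 4 members higher and 1 lower, against 12.8% and 8.51% of all genes. Fth1 was among the 4 (edgeR unadjusted p = 0.041), with all of its counts on a non-coding form. DESeq2 and limma-trend on log2(count + 1), the latter without library scaling, also called 3 members higher and 0 lower. Values given below after quantile normalization come from limma-trend as well. The median log2 fold change of LPS over control was 0.24 over the 9 members and -0.05 over all genes tested. Both LPS libraries lay above both control libraries in CPM for 5 members, Fth1 among them, and below them for 1, and the groups overlapped for 3. Of all genes tested, 24.7% lay wholly above and 25.8% wholly below. Without LPS replicate 1 only Lcn2 kept its call among the members, and without LPS replicate 2 only Mt2. Such a fit has 1 library left in a group and less power, so a call can be lost without a change in the estimate.

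**Figure D1:**
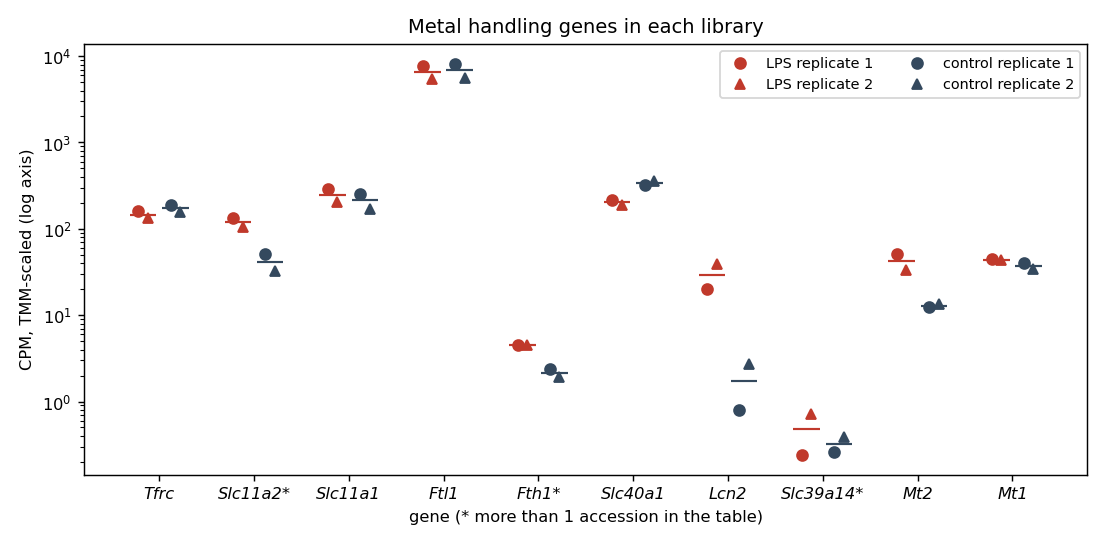
Level of each gene in each library, as CPM after TMM scaling on a log axis, with LPS in red left of control in dark blue; circles are replicates 1, triangles replicates 2 and bars the mean of 2 libraries. Lcn2, Mt2 and Slc11a2 stand higher in both LPS libraries, while Ftl1 spans 5483 to 8205 CPM over all 4 libraries with the groups overlapping.

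Among the genes of iron entry, Slc11a2 rose and Tfrc and Slc11a1 were not called. Slc11a2 (chromosome 15, 100387898 to 100424209, GRCm38.p6), also known as DMT1, carries ferrous iron and other divalent metals across the endosomal and plasma membranes. It had 135 and 105 CPM in LPS replicates 1 and 2 and 50.7 and 32.7 CPM in control replicates 1 and 2. The lower LPS library still stood well above the higher control, and the groups did not overlap. Slc11a2 was 2.88-fold higher in LPS (log2 fold change 1.53 ± 0.30 SE, n = 2 each, edgeR adjusted p = 0.036). This call did not survive leaving out LPS replicate 1 (1.34, adjusted p = 0.18), LPS replicate 2 (1.70, 0.083) or control replicate 2 (1.21, 0.060; range over all edgeR, DESeq2 and limma alternatives 2.4e-08 to 0.18).

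The 2 RefSeq accessions of Slc11a2 differ in their exons, and each has bases of its own, 2707 of 4415 and 1317 of 3025. The longer form had 398 and 322 counts in LPS and 149 and 129 counts in control. The shorter form had 168 and 116 counts in LPS and 44 and 41 counts in control. Tested singly in a fit over all 9597 accessions (6.6% called higher, 1.81% lower), a test chosen after the data were seen, both forms rose. The longer had a log2 fold change of 1.43 ± 0.30 (edgeR adjusted p = 0.044) and the shorter 1.81 ± 0.34 (adjusted p = 0.031). Whether the forms differ from each other in their change was not tested.

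Tfrc (chromosome 16, 32608896 to 32632794), the transferrin receptor, had 160 and 133 CPM in LPS and 188 and 157 CPM in control. The groups overlapped, and the log2 fold change was -0.24 ± 0.21 (edgeR adjusted p = 0.62). Slc11a1 (chromosome 1, 74375014 to 74386057), also known as Nramp1, pumps divalent metals out of the phagosome of macrophages. It had 290 and 205 CPM in LPS and 256 and 171 CPM in control. In both groups replicate 1 was the higher library, and the spread between replicates exceeded the difference between groups. The log2 fold change of Slc11a1 was 0.22 ± 0.29 (adjusted p = 0.76), with a sign that turned to -0.05 without LPS replicate 1, -0.08 without control replicate 2, -0.20 under total-count scaling and -0.37 after quantile normalization. Total-count scaling moved the median of all genes to -0.48, and relative to that median Slc11a1 stood at 0.28, against 0.26 relative to the median with TMM. Slc11a1 was not called in any alternative (adjusted p 0.17 to 0.97).

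The ferritin light chain gene Ftl1 (chromosome 7, 45457944 to 45459886), which encodes the subunit that helps to lay down the iron core, was by far the most abundant member. It had 7721 and 5483 CPM in LPS and 8205 and 5585 CPM in control. Replicate 1 was higher than replicate 2 in both groups, and the groups overlapped. The log2 fold change of Ftl1 was -0.06 ± 0.29 (edgeR adjusted p = 0.94), with a sign that turned to 0.17 without LPS replicate 2, 0.23 without control replicate 1 and 0.04 without a filter. After quantile normalization Ftl1 was called lower (-0.87, adjusted p = 0.013, range 0.013 to 1.00). The reference lists processed copies of Ftl1 among its pseudogenes, and reads shared with them may have been lost or added.

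The heavy chain gene Fth1 (chromosome 19, 9980600 to 9985111), whose subunit oxidises iron for storage, could not be read as a level of its main mRNA. The protein-coding accession had 0 counts in all 4 libraries, and only 6 of its 929 exon bases lie outside the second, non-coding accession of the gene. That second accession, with 571 of 1494 bases of its own, held every count: 19 and 19 in LPS, 9 and 10 in control. Both LPS libraries had about double the controls in CPM, at 4.54 and 4.56 against 2.37 and 1.92. The log2 fold change of Fth1 was 1.09 ± 0.41 and not called (edgeR adjusted p = 0.21), and it concerns the second form alone.

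Slc40a1 (chromosome 1, 45908070 to 45926532), the only known exporter of iron from vertebrate cells, had 218 and 191 CPM in LPS and 318 and 355 CPM in control. Both LPS libraries lay below both controls. Slc40a1 was 1.65-fold lower by estimate (log2 fold change -0.72 ± 0.19), with an edgeR adjusted p of 0.092 that missed the threshold. It was called lower in 4 of 14 alternatives, among them a minimum mean count of 50 (-0.82, adjusted p = 0.044), total-count scaling (-1.16, 0.029) and quantile normalization (-1.28, 0.015; range 1.1e-04 to 0.45). Relative to the median gene, Slc40a1 stood at -0.68 under total-count scaling. Summed microglia and macrophage markers, a cell class that expresses Slc40a1, were also lower in both LPS libraries (3154 and 2951 CPM) than in control (4606 and 4146 CPM), and their part in this value was not tested.

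**Figure D2:**
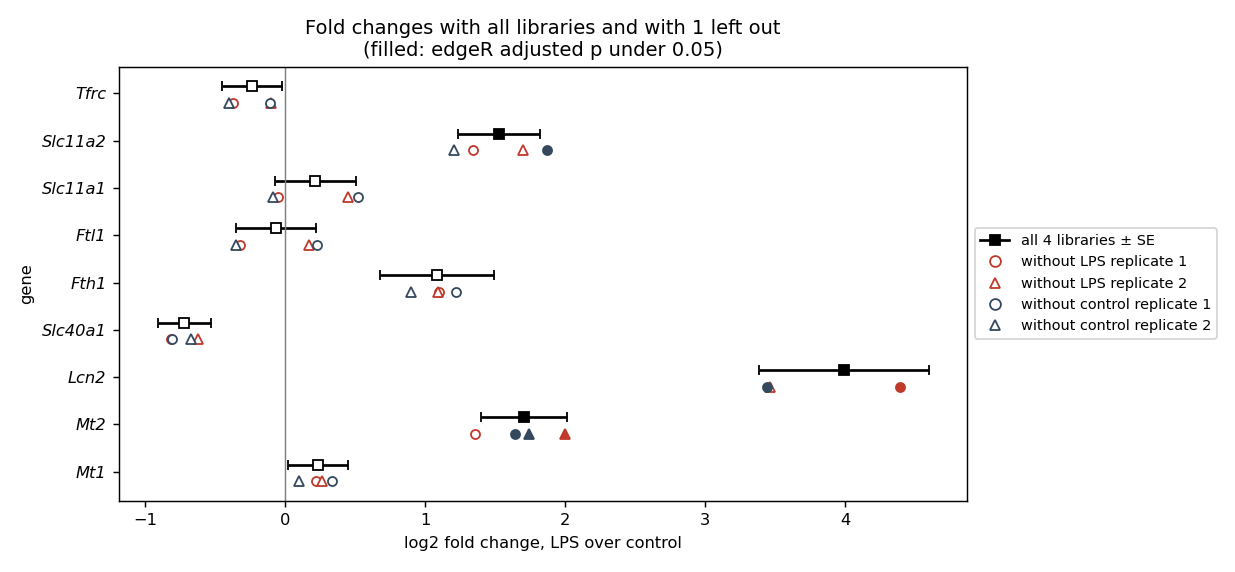
Log2 fold change of LPS over control for the 9 tested genes. Black squares with bars show all 4 libraries ± SE, and red or dark blue symbols show the fit without the named LPS or control library, filled where the edgeR adjusted p was under 0.05. Slc11a2 kept its call in 1 of the 4 reduced fits, and the value of Lcn2 without control replicate 2, which leaves 3 control counts, is given in the text as a ratio.

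Lcn2 (chromosome 2, 32384637 to 32387739), lipocalin-2, showed the largest increase among the members. It had 85 and 161 counts in LPS replicates 1 and 2 and 3 and 14 counts in control replicates 1 and 2. In CPM these were 20.3 and 38.6 in LPS and 0.789 and 2.69 in control, so that the lower LPS library stood well above the higher control. Lcn2 was 15.9-fold higher in LPS (log2 fold change 3.99 ± 0.61, edgeR adjusted p = 0.016). Without LPS replicate 2 the call was lost (3.46, adjusted p = 0.053, range 5.1e-10 to 0.053). Without control replicate 2 the control group held 3 counts, and the ratio from counts was 37.3 (95% Clopper-Pearson interval 12.6 to 182). That interval covers counting error only.

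Neutrophils and reactive astrocytes are also known to make Lcn2, so markers of both were read beside it. Summed neutrophil markers were 32.2 and 33.1 CPM in LPS and 35.0 and 29.0 CPM in control. Of the 9 neutrophil markers in the table, 2 were tested and none was called. S100a8 had 13.8 and 19.7 CPM in LPS and 10.3 and 8.08 CPM in control. Both LPS libraries lay above both controls, with a log2 fold change of 0.87 that missed the threshold (edgeR unadjusted p = 0.040, adjusted p = 0.21). Mmp8 lay the other way, with 63 and 43 counts in LPS and 80 and 87 counts in control (log2 fold change -0.57, adjusted p = 0.40). Camp, a granule peptide gene with too few counts to test, had 5 and 8 counts in LPS and 1 and 2 in control. Mpo, Ngp and Retnlg, also with too few counts to test, lay the other way. Mpo had 2 and 3 counts in LPS and 5 and 7 in control, and Ngp 3 and 1 against 4 and 5. Retnlg had 1 and 0 against 2 and 2, while Ltf, with 3 and 1 against 2 and 5, overlapped. The granule enzyme gene Elane had 0 and 0 counts in LPS and 0 and 1 in control, and S100a9, which has more than 1 accession, was listed at 0. Lcn2 was higher in replicate 2 than in replicate 1 within each group, as were the summed astrocyte markers but not S100b. Of the 8 tested astrocyte markers none was called. The part of neutrophils or astrocytes in the level of Lcn2 was not tested. Within libraries numbered 1 the log2 ratio of LPS to control for Lcn2 was 4.69, and within those numbered 2 it was 3.84.

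**Figure D3:**
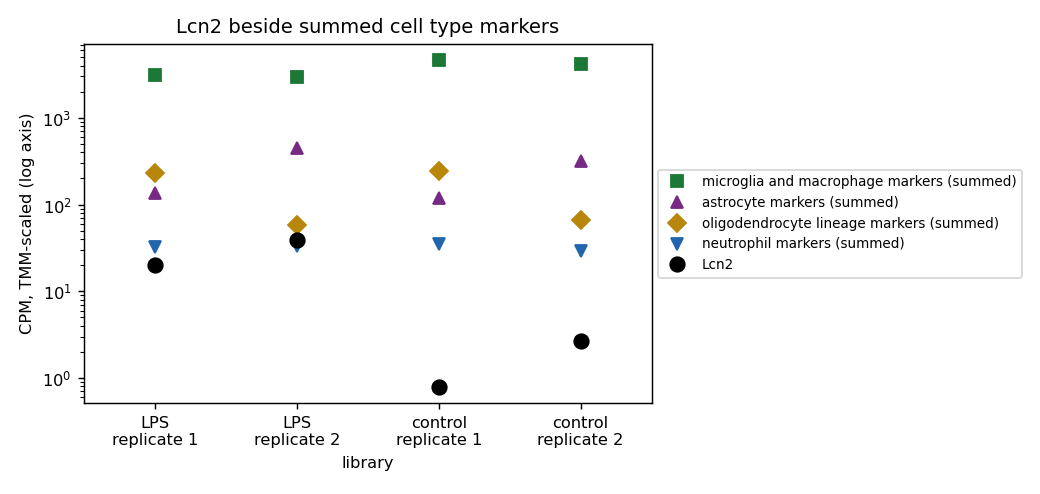
Lcn2 (black circles) and the summed markers of 4 cell types in each library, as CPM after TMM scaling on a log axis, LPS libraries left of control libraries. Lcn2 separates the groups, whereas the astrocyte sum is higher and the oligodendrocyte lineage sum lower in replicate 2 of each group.

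Among 9547 other tested genes, those whose level across the 4 libraries was most like that of Lcn2 were Mir221, Mmp3 and Olr1. The Euclidean distances of their centred log2(CPM + 1) profiles from that of Lcn2 were 0.37, 0.44 and 0.52. Mir221, a microRNA gene, had 132 and 176 counts in LPS and 6 and 21 in control, and its mature microRNA was not measured separately. Olr1, a scavenger receptor for oxidised lipoprotein, had 140 and 179 counts in LPS and 8 and 27 in control. The matrix protease gene Mmp3 had 277 and 560 counts in LPS and 23 and 85 in control. In each of them, as in Lcn2, replicate 2 was the higher library of its group, an order that the choice by profile favours.

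On the zinc side, Mt2 rose, its neighbour Mt1 was not called, and Slc39a14 was barely counted. Mt2 (chromosome 8, 94172618 to 94173567) had 51.6 and 33.1 CPM in LPS and 12.4 and 13.5 CPM in control. The LPS libraries differed from each other more than the controls did, but both lay above them. Mt2 was 3.27-fold higher in LPS (log2 fold change 1.71 ± 0.31, edgeR adjusted p = 0.028). This call did not survive leaving out LPS replicate 1 (1.36, adjusted p = 0.17), nor total-count scaling (1.26, 0.060; range 1.4e-06 to 0.17), where Mt2 stood at 1.74 relative to the median gene.

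Mt1 (chromosome 8, 94178883 to 94180327) had 44.6 and 43.4 CPM in LPS and 40.2 and 34.6 CPM in control. Both LPS libraries were slightly above both controls. The log2 fold change of Mt1 was 0.24 ± 0.22 (edgeR adjusted p = 0.63), turning to -0.18 under total-count scaling, where it stood at 0.29 relative to the median gene. Within each library the ratio of Mt2 counts to Mt1 counts was 1.16 and 0.762 in LPS and 0.307 and 0.389 in control. The ratios did not overlap between groups. The two-sided exact permutation test gave p = 0.333, the smallest value that 2 libraries against 2 allow, so this test cannot decide whether they differ. Mt3, a metallothionein of the brain that astrocytes and neurons express, had 11.9 and 16.1 CPM in LPS and 13.9 and 18.1 CPM in control and was not called (-0.20 ± 0.31, edgeR adjusted p = 0.80).

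Slc39a14 (chromosome 14, 70303467 to 70351452), also known as Zip14, imports zinc and non-transferrin iron. It had 1 and 3 counts in LPS and 1 and 2 in control over its 3 accessions and was not tested. The accession with the most counts, 1 and 2 in LPS and 1 and 2 in control, has 2984 of 4926 exon bases that no other accession of the gene shares. Counts this low allow no fold change.

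Levels of different genes were compared per kilobase of transcript, for the 7 members with 1 accession. In LPS the order of mean level per kilobase was Ftl1 (6820 CPM per kilobase), Slc11a1 (107), Mt2 (82.8), Mt1 (80.2), Slc40a1 (60.7), Lcn2 (32.2) and Tfrc (29.9). Among neighbours in this order, Slc11a1 overlapped with Mt2, Mt2 with Mt1, and Lcn2 with Tfrc. Mt2 in LPS replicate 2 also lay just below Slc40a1 in LPS replicate 1. In control the order was Ftl1 (7123 CPM per kilobase), Slc40a1 (99.9), Slc11a1 (92.2), Mt1 (68.2), Tfrc (35.3), Mt2 (25.3) and Lcn2 (1.90), where only Slc40a1 and Slc11a1 overlapped as neighbours. Mt2 and Mt1 thus stood side by side in LPS, while in control both Mt2 libraries were below both Mt1 libraries.

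Beyond these members, 86 other genes of iron, haem, zinc and copper handling were listed by role, of which 85 were in the table and 49 were tested. Of the 49, 5 rose (10.2%) and 2 fell (4.08%), against 6.55% and 1.79% of all genes tested, and their median log2 fold change was 0.15. With so few genes these shares are not far from those of all genes. Of the 36 not tested, 24 had more than 1 accession. Among genes of iron entry and movement, 1 of 8 tested rose. Slc25a37, mitoferrin-1, which carries iron into mitochondria, had 161 and 133 CPM in LPS and 39.4 and 23.8 CPM in control and was 4.66-fold higher (log2 2.22 ± 0.31, edgeR adjusted p = 0.012). Without LPS replicate 1 its adjusted p was 0.054.

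In the export and hepcidin list, 2 of 3 tested genes fell, against 1.79% of all genes tested. Of the 10 genes of this list in the table, 7 were not tested. Flvcr1, a transporter described as a haem exporter, had 35.1 and 27.8 CPM in LPS and 125 and 72.5 CPM in control, a log2 fold change of -1.65 ± 0.33 (edgeR adjusted p = 0.040). Hfe, an MHC class I-like protein that binds the transferrin receptor and is mutated in human hereditary haemochromatosis, had 10.0 and 10.1 CPM in LPS and 26.8 and 31.7 CPM in control, a log2 fold change of -1.54 ± 0.26 (adjusted p = 0.022). For both genes the LPS libraries lay wholly below the controls. Without LPS replicate 1 or LPS replicate 2 both calls were lost, and that of Hfe also without control replicate 2. The log2 fold change without LPS replicate 1 and without LPS replicate 2 was -1.82 and -1.48 for Flvcr1 and -1.53 and -1.54 for Hfe. Without control replicate 2 that of Hfe was -1.44. Hamp, which encodes the hormone hepcidin that degrades ferroportin, had 2 and 5 counts in LPS and 0 and 1 in control, too few to test.

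None of the 5 tested genes of iron storage and sensing was called, among them Ireb2 and Aco1, whose products bind the hairpins shown above. Ireb2 had a log2 fold change of 0.25 ± 0.18 and Aco1 of -0.43 ± 0.20 (edgeR adjusted p = 0.51 and 0.30). In the haem list, 1 of 11 tested genes rose. Hmox1, haem oxygenase-1, which releases iron from haem, had 2695 and 1460 CPM in LPS and 697 and 512 CPM in control and was 3.44-fold higher (1.78 ± 0.35, adjusted p = 0.038). Hmox1 was not called with LPS replicate 1 left out (1.28, adjusted p = 0.13) or after quantile normalization (0.72, 0.18).

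Of 8 tested zinc importers none was called. Of the 6 tested genes of zinc export and sensing, 1 rose: Slc30a1, the zinc exporter of the plasma membrane and, like the metallothioneins, a known target of Mtf1. Slc30a1 had 71.4 and 70.0 CPM in LPS and 23.7 and 22.9 CPM in control, a log2 fold change of 1.60 ± 0.21 (edgeR adjusted p = 0.010). Replicates nearly coincided in each group. The log2 fold change of Slc30a1 was 1.60 without LPS replicate 1 and 1.62 without LPS replicate 2, although the call was lost in both of these smaller fits. Mtf1 itself had a log2 fold change of 0.33 ± 0.41 (adjusted p = 0.74).

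Of 8 tested copper genes 2 rose. Slc31a1, the high-affinity copper importer CTR1, had 494 and 394 CPM in LPS and 189 and 173 CPM in control (log2 1.29 ± 0.21, edgeR adjusted p = 0.019). Cox17, a copper chaperone for cytochrome c oxidase, had 83.3 and 70.0 CPM in LPS and 31.8 and 33.5 CPM in control (1.23 ± 0.22, adjusted p = 0.026). Without LPS replicate 1 or LPS replicate 2 both calls were lost (0.13 and 0.061 for Slc31a1, 0.22 and 0.10 for Cox17), as they were under total-count scaling (0.053 and 0.11) and quantile normalization (0.051 and 0.052). Cox17 also lost its call without control replicate 1 (0.057) or control replicate 2 (0.059) and in limma-trend (0.088).

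**Figure D4:**
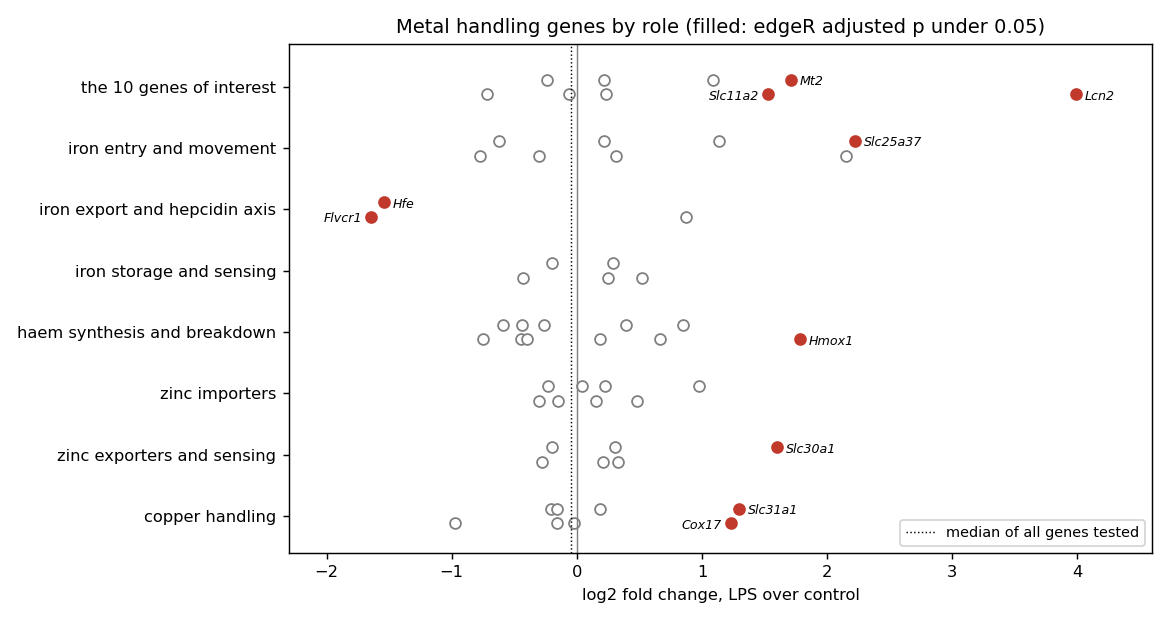
Log2 fold change of LPS over control for each tested metal gene, by role, with filled red points at an edgeR adjusted p under 0.05 and the median of all genes tested as a dotted line. Called genes appear in 6 of the 8 rows, higher in all of these but the export and hepcidin row. In that row, with 3 tested genes, Flvcr1 and Hfe are lower.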

How the data were processed

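RNA sequencing counts were analysed for 2 LPS and 2 control libraries of primary mouse microglia. Per the labels' protocols, libraries depleted of ribosomal RNA were made with a strand-marking kit and read from both ends. HTSeq 0.6.1, TopHat2 2.0.10, Trimmomatic 0.33 and the build mm10 are among the names in the submitters' processing notes. Whether counting used strand or multiply mapped reads is not stated there, so reads of overlapping genes, antisense partners and near-identical copies cannot be told apart. The authors deposited whole-number counts for 32915 RefSeq accessions. Although its name says normalized, library totals in the table differ and values are whole, so it was treated as counts. Accessions were matched to symbols through RefSeq (GRCm38.p6, 32487) and GENCODE M21 metadata (187), 241 matched neither, and counts were summed per gene. The 4801 genes with more than 1 accession had a median mean count of 0.5, and the other 19347 one of 7.25: reads shared by accessions may not have been counted.

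Genes averaging 10 or more counts were tested with edgeR 4.0.16 (R 4.3.3, quasi-likelihood, TMM scaling, no covariate, two-sided, adjusted p under 0.05). The same code was also run on simulated counts with the gene means of these data, a common spread for all genes and independent libraries. Such counts lack the shared deviations of libraries with the same number, and no result here rests on them. Standard errors were derived as |log2 fold change| over the root of the F statistic. Replicate counts were not alike within sampling noise (13.1 in LPS and 16.7 in control, chi-square over degrees of freedom). Alternatives used DESeq2 1.42.0, limma 3.58.1 on log2(count + 1), other scalings and filters, the replicate number as a block, and each library left out. The limma fit had no library scaling, and quantile normalization was applied to the same values within limma. The single-accession test was added after the data were seen. The test of the Mt2 to Mt1 ratio and the Lcn2 ratio from counts were not among the planned tests either. Named genes were the members, up to 3 called genes in each direction of each metal list, and the 3 nearest profiles to the most increased member. Genes named outside this rule (Tfrc's regulators Ireb2 and Aco1, and Mtf1, Mt3, Hamp and cell type markers) were chosen for their roles after values were seen, as was the promoter of Mt1. The members and lists were chosen with earlier results of these data known. Transcript lengths and hairpins come from GENCODE M21 transcripts and promoters from RefSeq, which held windows for 7 of the 10 members. Protein sequences were not used here.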

Additional observations from a re-analysis of the deposited data

How the results depend on the processing

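Leaving out 1 library gave 339 to 660 genes higher and 33 to 241 lower in LPS over all genes tested, 1 to 3 members higher and 0 lower, and 1 to 7 of the other metal genes higher and 0 to 2 lower. The numbers of genes called with all 4 libraries were 625 and 171. Without LPS replicate 1 there were 339 higher and 33 lower, and without LPS replicate 2 there were 425 and 33. Under total-count scaling 483 genes, 1 member (Slc40a1) and 4 other metal genes were lower, and 3 other metal genes higher. After quantile normalization 322 genes and 2 members (Slc40a1, Ftl1) were lower, and 2 other metal genes higher. With a minimum mean count of 50, 1 member (Slc40a1) was lower. In edgeR, higher calls made up 78.5% of all calls with TMM scaling and 49.4% under total-count scaling. In limma-trend they made up 73.7% without quantile normalization and 61.9% with it.

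Libraries of the same number deviated together (correlation 0.673 over 9548 genes), but the labels do not say what the number marks. With the replicate number as a block, 1677 genes were higher and 1258 lower, 3 members higher and 1 (Slc40a1, -0.72, adjusted p = 1.1e-04) lower, and 11 other metal genes higher and 7 lower. Signs turned for 3 members that were not called: Ftl1 (0.0415 without a filter, -0.35 to 0.23 with 1 library left out, 0.17 without LPS replicate 2, 0.23 without control replicate 1), Slc11a1 (-0.20 under total-count scaling, -0.37 after quantile normalization, -0.0831 to 0.523 with 1 library left out, -0.0477 without LPS replicate 1) and Mt1 (-0.18 under total-count scaling). The flips under total-count scaling follow from that scaling, which moved the median of all genes to -0.48: relative to it Slc11a1 stood at 0.28 and Mt1 at 0.29. The cause of the other shifts was not tested. Lcn2, Mt2 and Slc11a2 were positive in every alternative run. A count of 0 to 3, as for Slc39a14 and Lcn2 in control replicate 1, limits what can be shown for these genes. For Slc39a14, reads shared by its 3 forms may also not have been counted.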
